A study of Mus musculus with 33 samples.

Results

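The regions described here are the Uhrf1-bound windows of wild-type (WT) mouse embryonic stem cells (mESC) that carried none of 3 histone marks. Uhrf1 binding was deposited as a list of 13644 windows of 10 kb, and a window was taken as unmarked when it shared not 1 bp with a WT mESC domain of H3K4me3, H3K27me3 or H3K9me3. By this rule 6124 of the 13644 windows (44.9%) were unmarked, while 1809 lay on H3K9me3 alone and 790 on H3K27me3 alone. The windows were thus chosen by the Uhrf1 list and the WT mESC domains, which are given below as a description only. The unmarked windows lay a median of 111.9 kb from the nearest WT mESC domain. Just inside the rule, 71 of them had a domain less than 1 kb away. Just outside it, 47 windows were counted as marked with less than 1 kb of domain, the smallest overlap being 100 bp.

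The study compared E14 mESC, a line of embryonic stem cells, with Uhrf1 knockout (KO) mESC, also labelled E14, grown undifferentiated in medium with LIF or left to differentiate as cell aggregates, embryoid bodies (EBs), for 1, 2 or 3 weeks. The 33 samples, 17 WT and 16 Uhrf1 KO, were ChIP-seq libraries, which hold the DNA that an antibody to a protein or histone mark pulls down, and their inputs. Of these, 25 had a list of regions: 18 of histone domains (H3K4me3, H3K27me3 and, in mESC, H3K9me3), 6 of Oct4, Sox2 and Nanog summits in mESC, and the Uhrf1 list. The KO cells came as an established line from another group, and all KO samples rest on it. Each combination of genotype, stage and target was 1 library, so the spread between replicates is unknown and no p-value is given. Intervals are 95% intervals that cover counting error over windows, and adjacent windows are not independent. As a check of the cell type, a WT mESC H3K4me3 domain lay within 2 kb of the start of 4 of 5 pluripotency genes (Pou5f1, Sox2, Nanog and Zfp42, not Esrrb), and the KO list gave the same 4. No list measures Uhrf1 RNA or protein, so the knockout itself could not be checked.

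Uhrf1 is needed to keep DNA methylation through cell division: it recognises sites methylated on 1 strand after replication and recruits the enzyme Dnmt1 there. Its tandem Tudor domain reads H3K9me3. H3K9me3 marks heterochromatin and silenced repeats, H3K27me3 is laid down by polycomb repressive complex 2, and H3K4me3 marks promoters. Repeated DNA is heavily methylated in mammals, and a read from a repeat cannot be assigned to 1 copy. The authors kept 1 alignment per read and called domains with a correction for positions that 50-base reads cannot map to uniquely.

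For that reason the sequence of the windows is given first. At every 500 bp a 50-mer was read from the mm9 genome and counted on both strands, and 80.1% ± 26.98 (SD, n = 6122 windows with a countable 50-mer) of those in an unmarked Uhrf1 window occurred again elsewhere. The same share was 47.6% ± 24.9 in Uhrf1 windows on H3K9me3 alone, 42.4% ± 26.96 in those on H3K27me3 alone, and 11.5% ± 19.9 over all 255873 windows of the genome in which no more than 50% of bases were unread. In 2362 unmarked Uhrf1 windows (38.6%) every sampled 50-mer was repeated, and only 751 (12.3%) had under 50% repeated. The repeats were of low copy number more often than in the marked classes: 31-mers with at least 100 copies made up 21.1% ± 22.6 of an unmarked Uhrf1 window, against 38.0% ± 24.4 on H3K9me3 alone and 38.1% ± 26.1 on H3K27me3 alone. Most of the repeated sequence in unmarked Uhrf1 windows was thus of fewer than 100 copies.

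Sequences at some of the factor summits described below are shown as the 101 bases around the summit on the + strand of mm9. The octamer ATGCAAAT, the word Oct4 binds, is in capitals where it occurs. The sequences are from among the 3 tallest summits of each list in unmarked Uhrf1 windows and do not stand for the other summits.
Zfp600 intron (chr4:146128656-146128756): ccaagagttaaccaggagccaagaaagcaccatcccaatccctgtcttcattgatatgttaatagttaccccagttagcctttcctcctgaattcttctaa
Gm13242 intron (chr4:145265537-145265637): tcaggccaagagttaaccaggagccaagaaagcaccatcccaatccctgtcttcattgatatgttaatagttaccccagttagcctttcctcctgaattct
Chromosome 4 Nanog site (chr4:146502473-146502573): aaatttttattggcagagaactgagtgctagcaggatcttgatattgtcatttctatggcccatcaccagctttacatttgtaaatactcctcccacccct
Chromosome 9 satellite (chr9:3017082-3017182): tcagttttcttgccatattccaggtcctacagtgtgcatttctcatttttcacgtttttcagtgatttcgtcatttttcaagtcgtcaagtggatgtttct
Chromosome 8 octamer site (chr8:19990174-19990274): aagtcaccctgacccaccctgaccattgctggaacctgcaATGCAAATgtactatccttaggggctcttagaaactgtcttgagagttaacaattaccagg
The stretches in introns of Zfp600 and Gm13242 come from different places on chromosome 4 and share an identical run of 96 bases. The chromosome 4 Nanog site has 2 exact copies in the genome, and the chromosome 9 stretch, in an exon of the predicted gene Gm10720, is mouse major (gamma) satellite with 4 exact copies. The chromosome 8 stretch occurs once.

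Whether a window held a WT mESC domain went with its repeat content, in the Uhrf1 list and outside it alike. Of Uhrf1 windows with 5 to under 25% repeated 50-mers, 84.9% held a WT mESC domain (interval 83.1 to 86.5), and with 50 to under 75% repeated, 75.3% did (73.9 to 76.6). The share was 26.6% at 75 to under 100% and 1.66% (1.22 to 2.26) where all 50-mers were repeated. Windows not in the Uhrf1 list gave 68.8%, 71.9%, 31.9% and 4.32% over the same ranges. The fall above 75% repeated was therefore found in windows with and without Uhrf1, as the plot of marks by repeat content shows. Membership of the Uhrf1 list went the other way, from 0.610% of windows with under 5% repeated 50-mers to 36.3% at 50 to under 75% and 80.9% at 100%. Whether the domain caller could have marked a fully repeated window was not tested, so an unmarked window is one with no called domain and not one shown to lack the mark.

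**Figure D1:**
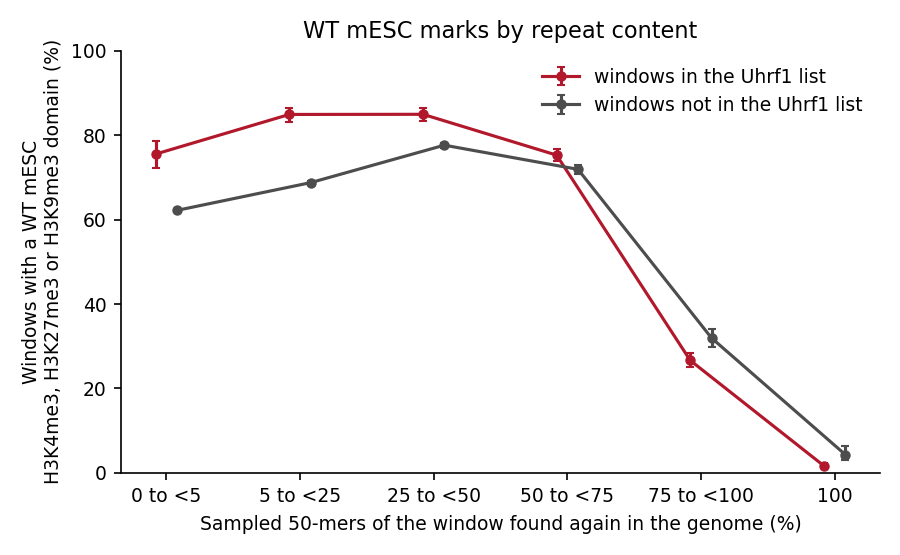
Share of 10 kb windows with a WT mESC H3K4me3, H3K27me3 or H3K9me3 domain (y axis, %) against the share of the window's sampled 50-mers found again in the genome (x axis, %), for windows in the Uhrf1 list (red) and not in it (grey). Points are shares and bars Wilson 95% intervals. Among Uhrf1 windows the share falls from 84.9% at 25 to under 50% repeated to 1.66% at 100% repeated, and it falls outside the list as well.

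Windows unmarked in WT mESC but absent from the Uhrf1 list (82083 windows) were used for comparison throughout. Because their 50-mers were repeated in only 8.25% ± 16.8, each main comparison is also given over windows with under 50% repeated 50-mers, 751 with Uhrf1 and 78359 without, a restriction chosen after the data were seen. GC content was 40.9% ± 3.14 in unmarked Uhrf1 windows and 42.8% ± 4.46 in unmarked windows without Uhrf1, lower by 1.89 points (1.80 to 1.97), with the same sign on 18 of 19 autosomes. In windows with under 50% repeated 50-mers the means were 40.5% and 42.8%. The ratio of observed to expected CpG differed little, 0.174 ± 0.0748 against 0.180 ± 0.0573, and the sign was the same on only 9 of 19 autosomes. Counting each run of adjacent windows once turned the sign of the CpG difference, from -0.0054 to 0.00927.

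The unmarked Uhrf1 windows were spread unevenly over the chromosomes. Chromosome X held 1968 of them (32.1%) with 6.34% of the genome's windows, all 65 Uhrf1 windows of chromosome Y were unmarked, and 4091 (66.8%) were autosomal. On autosomes, chromosome 7 held 936, chromosome 14 held 589 and chromosome 12 held 408, together 47.3% of the autosomal ones on chromosomes with 15.9% of the autosomal windows. Chromosomes 4 and 5 followed with 393 and 351, and chromosome 11 held the fewest, 32. Per 1000 windows this ranged from 2.69 on chromosome 11 to 66.0 on chromosome 7, with a median of 11.1 over autosomes, while X had 121.4 and Y, with 270 windows, 240.7. Chromosomes 8 and 11, both low, had a WT mESC domain in 94.3% and 94.2% of all windows, chromosome 7 in 62.4% and chromosome X in 15.2%. Autosomal and X-linked unmarked Uhrf1 windows had like repeat content, 80.5% and 78.8% of 50-mers.

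**Figure D2:**
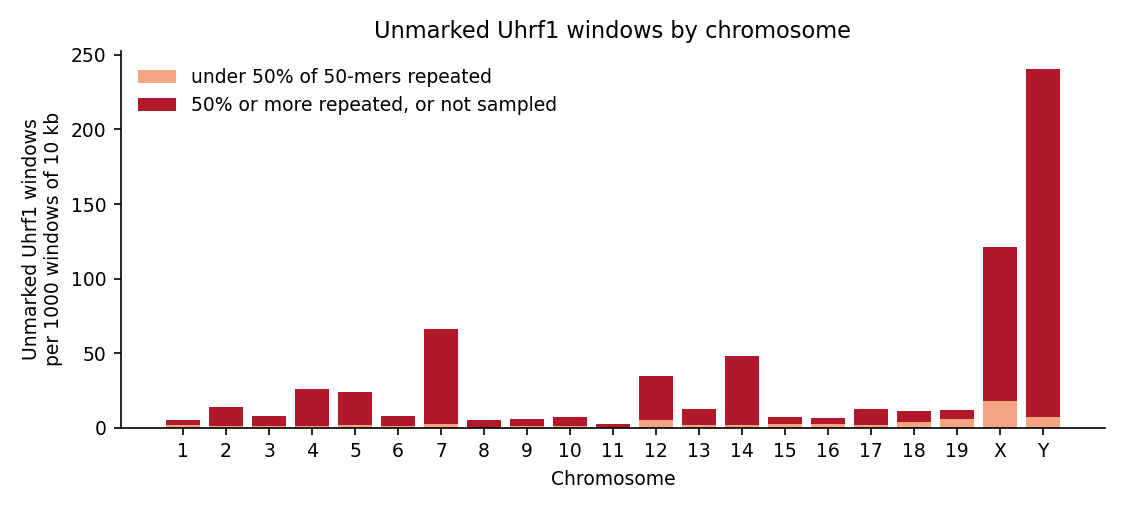
Unmarked Uhrf1 windows per 1000 windows of 10 kb (y axis) on each chromosome (x axis), split by whether under 50% of the window's sampled 50-mers are repeated (light) or not (dark). Chromosome Y reaches 240.7 and X 121.4, chromosome 7 is the highest autosome at 66.0 and chromosome 11 the lowest at 2.69.

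Chromosome X also stood apart where repeats were few. Of Uhrf1 windows with under 50% repeated 50-mers, 289 of 360 on X were unmarked, against 460 of 4200 on autosomes. A called domain was thus present in 19.7% of them on X and 89.0% on autosomes, and only these 460 of the 6124 windows were unmarked on an autosome in largely single-copy sequence. Among all X windows with under 50% repeated 50-mers, 5.62% held WT mESC H3K4me3 and 3.39% H3K9me3, against 15.6% and 45.1% on autosomes. What sets chromosome X apart in these lists was not tested.

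The windows fell into 2510 runs of adjacent unmarked Uhrf1 windows, of which 1832 were single windows. At the other end, 113 runs of 10 or more windows held 2380 windows (38.9%). The longest run had 127 windows on chromosome X (27680001 to 28950000 in mm9) and touched only Gm10096 and Gm10147 among protein-coding genes. The next, of 112 windows on chromosome 7 (22450001 to 23570000), touched 29 coding genes, 11 of them V1r-type vomeronasal receptors such as Vmn1r135 and Vmn1r157, pheromone receptors of sensory neurons. The third, of 77 windows on X (26870001 to 27640000), touched Gm10058 and Gm4836. In the 3 runs 99.3%, 99.1% and 99.4% of sampled 50-mers were repeated, and of their 316 windows 1 overlapped a domain in any of the 18 histone lists.

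Relative to genes, the unmarked Uhrf1 windows were seldom inside gene bodies but not far from gene starts. The midpoint lay in a protein-coding gene body in 1422 of 6124 windows (23.2%, 22.2 to 24.3). Over all windows of the genome the share was 38.8%, and in unmarked windows without Uhrf1 it was 50.2%. The difference from the latter was -26.9 points (-28.0 to -25.8), with the same sign on all 19 autosomes. With under 50% repeated 50-mers the shares were 35.8% and 51.4%, a difference of -15.5 points (-18.9 to -12.0). On autosomes with that limit they were 44.1% and 54.8%, a difference of -10.7 points (-15.2 to -6.13). Uhrf1 windows on H3K9me3 alone gave 18.6% (337 of 1809) and those on H3K27me3 alone 245 of 790.

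The median distance from the midpoint to the nearest protein-coding start was 43.7 kb (41.7 to 46.2), against 67.5 kb in unmarked windows without Uhrf1, 143.1 kb on H3K9me3 alone and 114.2 kb on H3K27me3 alone. With each run of adjacent windows counted once the median was 74.8 kb, longer than without Uhrf1. Within 100 kb of a start lay 68.9% of unmarked Uhrf1 windows and 60.6% of unmarked windows without Uhrf1. The order turned in largely single-copy sequence: with under 50% repeated 50-mers the median was 110.9 kb with Uhrf1 and 68.4 kb without. The shorter distance was thus found in windows with 50% or more repeated 50-mers. The autosomal median was 33.0 kb and the X-linked one 74.5 kb.

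**Figure D3:**
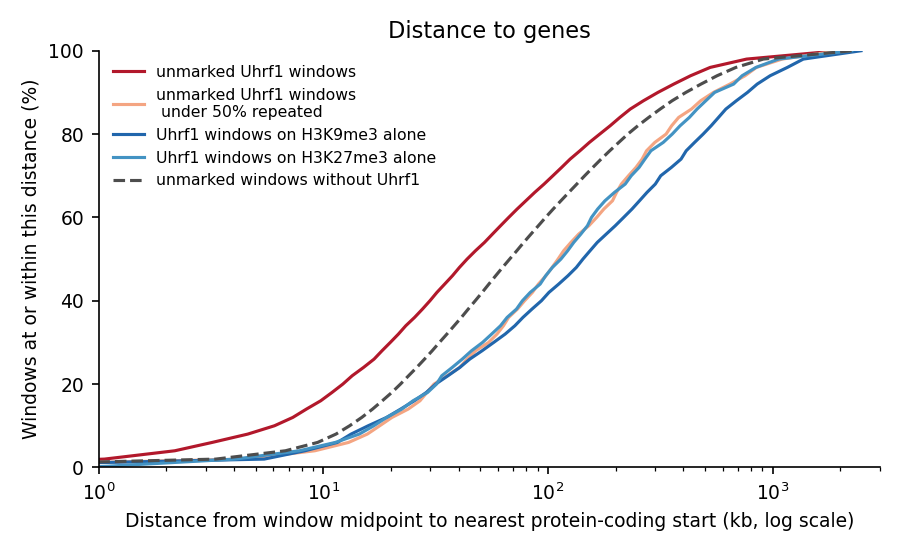
Cumulative share of windows (y axis, %) within a given distance of the nearest protein-coding start (x axis, kb, log scale) for unmarked Uhrf1 windows, the 751 of them with under 50% repeated 50-mers, Uhrf1 windows on H3K9me3 alone or H3K27me3 alone, and unmarked windows without Uhrf1 (dashed). The curve of all unmarked Uhrf1 windows lies leftmost, with a median of 43.7 kb, and that of the 751 lies right of the dashed curve, with a median of 110.9 kb.

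The bodies of 1109 of 22367 protein-coding genes (4.96%) were touched by an unmarked Uhrf1 window, and 572 had their start in one. Among gene families, 62 of 328 vomeronasal receptors (18.9%) were touched and 58 had their start in such a window. Of 1113 olfactory receptors, odorant receptors that also lie in clusters, 5 were touched (0.449%). Of 74 X-linked genes of testis-expressed families 25 were touched (33.8%), among them Rhox2a, Rhox3a and Rhox4a of the reproductive homeobox cluster, Slx and Slxl1, Magea1 and Ssxb1. Chromosome X as a whole had 121.4 unmarked Uhrf1 windows per 1000, against an autosomal median of 11.1. The share over all X-linked genes is not given, so family and chromosome cannot be told apart here. Defensins, antimicrobial peptides, were touched in 5 of 53 cases (9.43%), Defa3, Defa17, Defa23, Defa26 and Defa-rs7, all in the chromosome 8 cluster. Zinc finger genes named Zfp were touched in 6 of 371 cases (1.62%), with Zfp600 covered over all 5 of its windows, and cytochrome P450 genes in 4 of 98 (4.08%), including the neighbouring copies Cyp3a41a and Cyp3a41b. Predicted genes with names in Gm made up 469 of the 1109 genes, and 23.1% of the 2031 genes so named were touched. Major urinary protein genes (Mup), a cluster on chromosome 4, were touched in 12 of 21 cases. The last 2 groups were picked after their counts were seen.

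Long neuronal genes were touched at few of their many windows. Glutamate and GABA receptor genes were touched in 8 of 46 cases (17.4%), none at its start, and Grid1 (chr14:35633011-36396565), a delta-type glutamate receptor, had 4 of its 77 windows unmarked and Uhrf1-bound. Of 28 genes named Cntn, Cntnap, Nrxn, Nlgn, Lrrtm, Lrrc4c, Dlg2 or Csmd, 4 were touched (14.3%): Cntnap2, Cntnap5a, Csmd2 and Nrxn2. Protocadherins and cadherins were touched in 5 of 59 cases (8.47%). Taken over all windows of each touched glutamate or GABA receptor gene, the share of repeated 50-mers ran from 1.02% in Grik4 to 18.8% in Gabra3, with 7.99% in Grid1. The share in the unmarked Uhrf1 windows of these genes alone is not given. Over all windows of each of the 5 touched olfactory receptors the share ran from 0% in Olfr1320 to 43.1% in Olfr56. The list of genes active at the 2-cell stage held 13 names, Zscan4 genes and uncharacterized genes that the study named. The study reported both kinds among the genes most lowered in Uhrf1 KO mESC. Of 9 genes annotated under these names 6 were touched (66.7%): Zscan4b, Zscan4c, Zscan4e and Zscan4f, which lie in a tandem array, and both genes named BB287469. Over the windows of these 6 genes the share of repeated 50-mers ran from 69.8% in 1 BB287469 gene to 95% in Zscan4f. Gene family and repeat content cannot be told apart here. None of 40 Hox genes, 21 annotated pluripotency genes, 9 genes of DNA methylation and demethylation and 9 Set1/COMPASS genes was touched. The rule removes every window with a WT mESC domain, so these zeros can follow from the rule. Of 5 pluripotency genes checked, 4 had WT mESC H3K4me3 at the start. With 4.96% of all coding genes touched, 0 in a list of 9 is also near the overall share.

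The genes with the most unmarked Uhrf1 windows were nearly all predicted genes in duplicated sequence. Gm3002 on chromosome 14 held 22 by midpoint, Gm15093 on X 21, Gm3358 on chromosome 14 21 and Gm16430 on X 20. Vmn1r112 on chromosome 7 held 15. Of the sampled 50-mers in Gm3002 (chr14:3677734-3936396) 98.7% were repeated, in Gm15093 100% and in Vmn1r112 98.5%. The exception among the first 15 genes was Dmd (chrX:80194209-82451480), which encodes dystrophin and spans 2257 kb, with 13 of its 227 windows. Among the other genes the lowest share of repeated 50-mers was 86.6%, in Gm10406.

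To ask which marks appeared in these windows without Uhrf1, the KO mESC lists were overlapped with them. H3K9me3 was found in 213 of 6124 windows (3.48%, 3.05 to 3.97), H3K27me3 in 36 (0.588%, 0.425 to 0.813) and H3K4me3 in 19 (0.310%, 0.199 to 0.484). Over all windows of the genome the same lists covered 43.6%, 3.55% and 11.8%. In unmarked windows without Uhrf1 they covered 19.3%, 1.41% and 2.70%. The differences were -15.8 points for H3K9me3 (-16.3 to -15.2), -0.824 for H3K27me3 (-1.01 to -0.586) and -2.39 for H3K4me3 (-2.55 to -2.19), with the same sign on 18, 15 and 17 of 19 autosomes. Marks in the KO lists were thus rarer in Uhrf1 windows than in unmarked windows the Uhrf1 list does not hold.

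Repeat content moved with these differences. H3K9me3 in KO mESC was found in 10.8% of unmarked Uhrf1 windows both with under 50% repeated 50-mers and with 50 to under 75%, in 1.27% at 75 to under 100% and in 2 of 2362 windows at 100%. In unmarked windows without Uhrf1 the values were 19.7%, 17.3%, 2.12% and 0.188%. All 213 windows were autosomal, and on X the KO list marked 0 of 1968, with a Wilson upper bound of 0.195%, and 19 of 11791 unmarked windows without Uhrf1 (0.161%). On autosomes with under 50% repeated 50-mers the shares came closer, 17.6% (81 of 460) against 22.9%, a difference of -5.30 points (-8.52 to -1.54). For H3K27me3 they were 1.74% and 1.69%, with a difference of 0.0508 points (-0.810 to 1.71) that has the opposite sign, and for H3K4me3 1.30% and 3.11% (-1.80 points, -2.52 to -0.287). Only few of the 213 windows were neighbours, as they formed 210 runs of their own. None of the 572 genes with a start in an unmarked Uhrf1 window had a KO mESC H3K4me3 domain in that window. The rule leaves out starts with a WT mESC H3K4me3 domain, and only 19 of all 6124 windows held one in KO. The share over other coding starts is not given, so the 0 is not a result about these genes.

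In WT EBs the mark most often found in these windows was H3K27me3 at week 2, and in KO EBs it was H3K4me3 at week 2. In WT, H3K27me3 covered 10 windows at week 1 (0.163%), 484 at week 2 (7.90%) and 162 at week 3 (2.65%). In KO it covered 21 (0.343%), 79 (1.29%) and 41 (0.669%). The WT lists covered 6.45%, 47.3% and 34.6% of all windows of the genome and the KO lists 9.56%, 19.8% and 17.8%. Subtracting WT from KO gave 0.180 points in week 1 (0.00733 to 0.352). In week 2 it gave -6.61 (-7.33 to -5.90), and in week 3 -1.98 (-2.38 to -1.57). Only 19 windows carried H3K27me3 at week 2 in both genotypes, while 465 did so only in WT and 60 only in KO. The same KO minus WT difference was -27.5 points over all windows at week 2, and the KO list covered 466.8 Mb against 1165 Mb in WT, so the KO share was lower over the whole genome as well.

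At week 2 the comparison with unmarked windows without Uhrf1 changed direction with repeat content. Over all windows, WT H3K27me3 covered 7.90% with Uhrf1 and 21.2% without, a difference of -13.3 points (-14.0 to -12.5), with the same sign on 13 of 19 autosomes. With under 50% repeated 50-mers it covered 27.7% with Uhrf1 (208 of 751) and 21.5% without, a difference of 6.21 points (3.12 to 9.53), with the same sign on 13 of 18 autosomes. At 50 to under 75% repeated the shares were 23.2% and 26.4%, at 75 to under 100% 2.35% and 3.77%, and at 100% 0.169% and 0.377%. The higher share with Uhrf1 was not seen in the other EB lists: at week 3 in WT the shares with under 50% repeated were 7.86% and 15.7%, and at week 2 in KO 5.06% and 11.7%. Among the 751 windows the week 2 difference of KO minus WT was -22.6 points (-26.2 to -19.1), with 11 windows marked in both genotypes. Under the same limit the difference was -9.73 points (-10.1 to -9.37) in unmarked windows without Uhrf1. Without that limit, WT H3K27me3 covered 1232 of 1809 Uhrf1 windows on H3K9me3 alone (68.1%) and 498 of 790 on H3K27me3 alone. Both shares were above the 27.7% of the 751 unmarked windows. In these marked classes the week 2 difference of KO minus WT was -61.97 and -39.4 points.

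H3K4me3 in EBs was rare in these windows in both genotypes. WT lists covered 76 windows at week 1 (1.24%), 160 at week 2 (2.61%) and 128 at week 3 (2.09%), and KO lists 71 (1.16%), 169 (2.76%) and 106 (1.73%). Of all windows of the genome the WT lists covered 10.8%, 21.1% and 15.5% and the KO lists 9.62%, 17.2% and 16.2%. In unmarked windows without Uhrf1 these were 2.23%, 15.6% and 6.99% in WT and 2.29%, 9.71% and 7.28% in KO. In week 1 the KO share differed from WT by -0.0816 points (-0.344 to 0.180), in week 2 by 0.147 (-0.269 to 0.563). The week 3 difference was -0.359 (-0.692 to -0.0268), and only that interval leaves out 0. At week 2 the sign turned in windows with under 50% repeated 50-mers, where WT covered 46 of 751 (6.13%) and KO 22 (2.93%), a difference of -3.20 points (-4.79 to -1.60). Under the same limit the difference was -6.18 points (-6.42 to -5.94) in unmarked windows without Uhrf1. The 3 unmarked Uhrf1 windows with the highest week 3 H3K4me3 in both genotypes were neighbours on chromosome 8 from 19850001 to 19880000, intergenic and within 1 domain of 52.8 mean reads per bin in WT and 40.2 in KO.

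**Figure D4:**
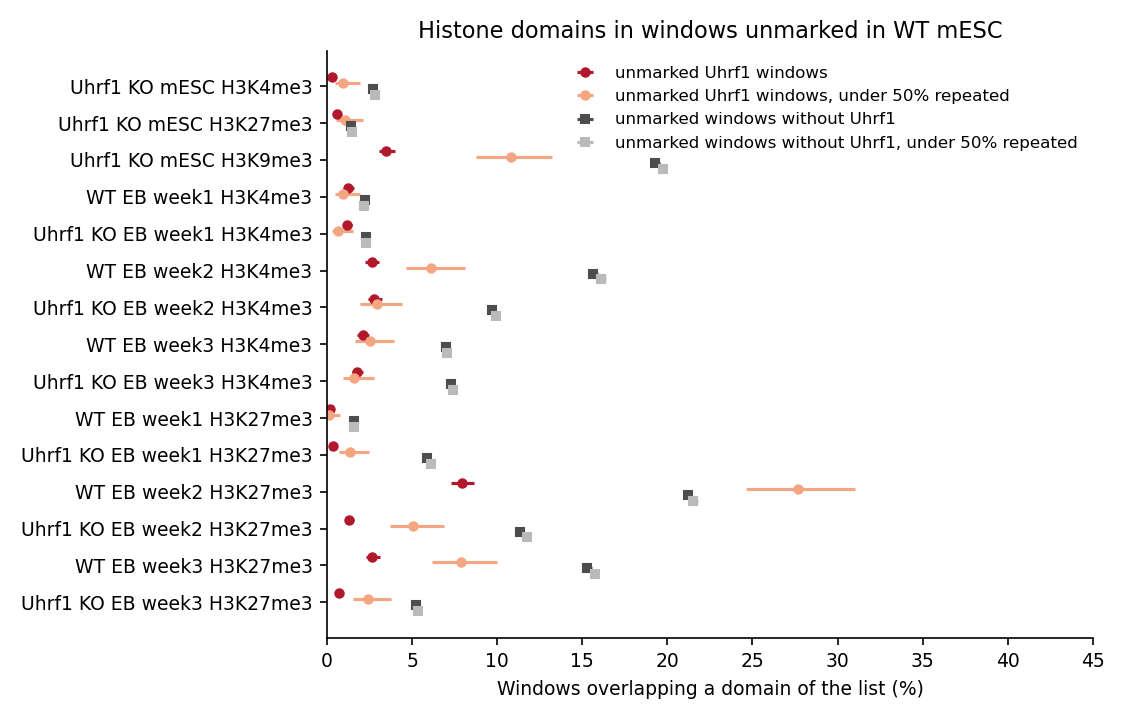
Share of windows (x axis, %) that overlap a domain of each KO mESC and EB list (y axis) for unmarked Uhrf1 windows (red) and unmarked windows without Uhrf1 (dark grey), each also limited to windows with under 50% repeated 50-mers (light). Bars are Wilson 95% intervals. WT week 2 H3K27me3 is the list in which the 751 windows with Uhrf1, at 27.7%, lie above the windows without, at 21.5%.

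Counting all 15 histone lists other than those of WT mESC, 1003 of the 6124 windows (16.4%) held a domain at least once and 5121 (83.6%) never did. Unmarked windows without Uhrf1 held one in 60.3% of cases. With under 50% repeated 50-mers the shares were 45.1% and 61.7%.

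Oct4, Sox2 and Nanog are the transcription factors at the centre of the pluripotency network, and Oct4 and Sox2 bind many sites as a pair. In WT mESC, 447 unmarked Uhrf1 windows held an Oct4 summit (7.30%), 96 a Sox2 summit (1.57%) and 42 a Nanog summit (0.686%). In KO mESC these were 42 (0.686%), 288 (4.70%) and 162 (2.65%). Over all windows of the genome the shares were 4.44%, 1.84% and 0.823% in WT and 0.129%, 7.07% and 3.67% in KO. Oct4 was found in 6.61 points fewer windows in KO (interval of KO minus WT -7.27 to -5.96). Sox2 was found in 3.14 points more (2.66 to 3.61) and Nanog in 1.96 points more (1.60 to 2.32). Of the 447 Oct4 windows 22 kept a KO Oct4 summit, and of the 96 Sox2 and 42 Nanog windows 79 and 39 kept one.

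The lists differ in length in the same directions, and these differences turned when the lists were made equally long. Oct4 had 12898 summits in WT and 576 in KO, of which 489 lay on the main chromosomes, Sox2 5190 and 20755, and Nanog 2390 and 10632. With the longer list of each pair shortened to its tallest summits, KO minus WT was 0.392 points for Oct4, -0.669 for Sox2 and -0.425 for Nanog, each of the opposite sign to the full lists. These rest on few windows, in WT and KO 18 and 42 for Oct4, 96 and 55 for Sox2, and 42 and 16 for Nanog. Without a chromosome 8 stretch described below, the Oct4 counts were 16 and 26. No interval was computed for these differences. As shares of a list, 4.05% of WT Oct4 summits (3.73 to 4.41) and 25.9% of KO ones (22.5 to 29.6) lay in unmarked Uhrf1 windows. For Sox2 the shares were 2.60% (2.20 to 3.07) and 1.72% (1.56 to 1.91), and for Nanog 4.85% (4.06 to 5.79) and 2.63% (2.35 to 2.95).

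Compared with unmarked windows without Uhrf1, Oct4 summits in WT were more frequent in unmarked Uhrf1 windows, 7.30% against 2.40%, a difference of 4.90 points (4.27 to 5.59) with the same sign on all 19 autosomes. With under 50% repeated 50-mers 27 of 751 windows with Uhrf1 and 1646 of 78359 without held one (1.49 points, 0.377 to 3.08), and the sign was the same on 8 of 18 autosomes. At 50 to under 75% repeated they were 15.3% and 8.18%, while at 75 to under 100% they were 8.02% and 9.82% and at 100% 4.57% and 7.53%, in the opposite order. Uhrf1 windows on H3K9me3 alone held WT Oct4 in 11.6% of cases and those on H3K27me3 alone in 14.3%. KO Sox2 was found in 4.09% of unmarked windows without Uhrf1 and KO Nanog in 2.93%, differences of 0.608 points (0.0872 to 1.18) and -0.285 points (-0.676 to 0.163). Neither kept its sign on more than 11 of 19 autosomes.

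**Figure D5:**
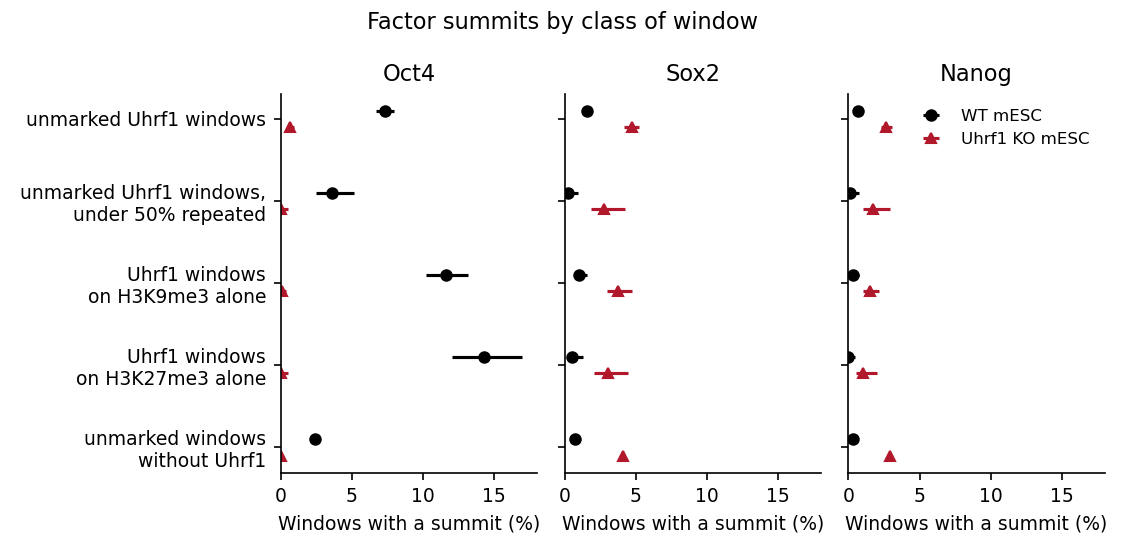
Share of windows (x axis, %) with a summit of Oct4, Sox2 or Nanog (panels) in WT mESC (black circles) and Uhrf1 KO mESC (red triangles), by class of window (y axis). Bars are Wilson 95% intervals. In all classes the KO share is lower for Oct4 and higher for Sox2 and Nanog, in unmarked Uhrf1 windows 7.30% against 0.686% for Oct4, on lists of unequal length.

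Sharing of sites between factors differed by list. Of the 523 WT Oct4 summits in unmarked Uhrf1 windows, 60 (11.5%, 9.02 to 14.5) had a WT Sox2 or Nanog summit within 100 bp, against 27.6% of the whole WT Oct4 list. For WT Sox2 summits the share with another factor of the same genotype was 54 of 135, against 62.7% of the list, for WT Nanog 20.7% against 77.0%, for KO Oct4 32.9% against 60.1% and for KO Nanog 44.6% against 56.4%. For KO Sox2 it was 28.5%, with 28.7% over the list. Of the WT Nanog summits 74 of 116, and of the KO Oct4 summits 94 of 149, lay in 1 stretch of chromosome 8 described below. Shares of sites without that stretch are not given. A KO Sox2 or Nanog summit lay within 100 bp of 146 of the WT Oct4 summits (27.9%), against 51.9% over the list, and 15 (2.87%) had a KO Oct4 summit, against 1.89%. The octamer lay within 100 bp of 6.88% of these Oct4 summits (5.01 to 9.38), 10.2% of all WT Oct4 summits and 2.41% of midpoints of unmarked Uhrf1 windows, where 1.74% of all window midpoints held it. The Sox2 word CATTGT was found at 4.40% (2.95 to 6.51) of the Oct4 summits in unmarked Uhrf1 windows and at 13.4% of the whole list, with 14.6% at the midpoints. Median heights were 26.0 reads for these Oct4 summits and 37.0 for the WT Oct4 list. Both words were read on both strands, neither contains the other though they can overlap at their ends, and a match describes the sequence and not a bound site.

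Reads at the summit are compared here only within a list. Among the 3 tallest WT Oct4 summits in unmarked Uhrf1 windows, though not the tallest of them, those of 158 and 154 reads lay in the introns of Zfp600 (position 146128706) and Gm13242 (position 145265587) that share 96 bases. In KO both sites held an Oct4 summit, of 20 and 29 reads where the median of the KO list was 22.0, and both had Sox2 summits in WT (70 and 52 reads) and KO (74 and 90). The chromosome 4 Nanog site at 146502523, 3.62 kb from the start of Gm13139, had 52 reads in each genotype. The major satellite site at position 3017132 of chromosome 9 held 112 reads of Nanog in WT, the tallest of that list, and no KO summit within 100 bp.

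A single stretch of chromosome 8 (19850001 to 20040000) held many of the Nanog summits and of the KO Oct4 summits in unmarked Uhrf1 windows. All 19 of its windows were in the Uhrf1 list and 16 were unmarked, with 83.5% of their 50-mers repeated, and 1 coding gene lay within it. The stretch was chosen after its values were seen. Of the 149 KO Oct4 summits in unmarked Uhrf1 windows 94 (63.1%) were here, as were 74 of 116 WT Nanog summits, 95 of 280 KO Nanog summits, 8 of 523 WT Oct4 summits, 1 of 135 WT Sox2 summits and 16 of 358 KO Sox2 summits. The windows with the most summits of all were 3 of its windows with 24 each, starting at 19860001, 19900001 and 20020001. The octamer site printed above (position 19990224) carried 46 reads of Oct4 and 96 of Sox2 in KO and had no WT summit of either within 100 bp. Unlike most unmarked Uhrf1 windows, 14 of the 16 held a histone domain in a KO or EB list. Without this stretch KO minus WT over the full lists was -6.79 points for Oct4 and 2.96 for Sox2, and over lists of equal number 0.164 for Oct4, -0.737 for Sox2 and -0.246 for Nanog.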

How the data were processed

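ChIP-seq lists were used as deposited, 1 per library. Per the labels and the study's methods, the authors mapped reads to mm9 with Bowtie2 2.1.0, kept 1 alignment per read and did not pool libraries. Histone domains were called against input with RSEG, and each deposited domain carries its average reads per bin as a signal and a domain score. Factor summits were called with MACS and deposited with a signal, the reads stacked there. Uhrf1 windows were deposited with neither. The lists give no library totals, so depth is unknown, and intervals cover counting error over windows only.

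The genome was cut into windows of 10 kb. Windows were compared by overlap of at least 1 bp, by midpoint with protein-coding genes of GENCODE for NCBIM37 (mm9), and by 31-mers and 50-mers sampled every 500 bp. Wilson intervals were used for shares, Newcombe intervals for differences between classes, normal intervals for differences of means, an order-statistic interval for the median, and a paired normal interval for KO minus WT, with Python 3.11, numpy 2.4.6 and pysam 0.24.0. Overlap, runs and intervals were tested on simulated data. Named items were the 3 longest runs, the genes with most windows, genes with a KO H3K4me3 domain at the start, the 3 tallest summits per list, and the windows with most summits or strongest week 3 H3K4me3. The regions and gene lists were chosen with earlier results of these data known. Alternatives were stricter and wider overlap, domains above the median score, summit height, lists of equal number, runs counted once and autosomes only. The 50-mers, the limits on repeat content, the chromosome 8 stretch and the choice of sequences to print came after the data were seen. Input samples were not analysed here. One named summit site, the tallest in these windows in 5 of the 6 factor lists, is not reported here.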

Additional observations from a re-analysis of the deposited data

Results flagged for a closer look

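The sign of KO minus WT changed between EB weeks, and that change was not tested, with 1 library per genotype and week. In unmarked Uhrf1 windows H3K27me3 went from 0.180 points in week 1 to -6.61 in week 2, then -1.98 in week 3. The turn was not particular to them. By week, H3K27me3 gave 3.11, -27.5 and -16.7 points over all windows of the genome. In unmarked windows without Uhrf1 it gave 4.32, -9.85 and -10.1. In unmarked Uhrf1 windows H3K4me3 gave -0.0816 points first, 0.147 in week 2 and -0.359 last, where the intervals of week 1 and week 2 spanned 0.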

How the results depend on the processing

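Of 75 alternative values for 18 results, 26 stayed close to the value given above, 44 moved and 5 turned the sign of a difference whose interval left out 0. Among those that moved, week 1 and week 2 H3K4me3 also changed sign, from intervals that spanned 0. The number of unmarked windows stayed close under every other overlap rule. Differences between classes are in points, with Uhrf1 minus without. With domains covering at least 50% of a window, KO mESC H3K4me3 gave -0.721 and H3K9me3 -15.1, and with domains above the median score -1.61 and -13.7. Counting runs once gave -21.1 for gene bodies, -4.68 for H3K4me3, -1.49 for H3K27me3, -21.1 for H3K9me3, 52.3 for repeated 31-mers, 0.00927 for CpG and a median of 74.8 kb to a start. On autosomes alone these were -2.59 for H3K4me3, -17.3 for H3K9me3, 73.4 for 31-mers, -0.0115 for CpG and 33.0 kb, and 10 kb added upstream gave -22.2 for gene bodies. With under 50% repeated 50-mers they were -15.5 for gene bodies, -1.86, -0.387 and -8.94 for the KO marks in that order, and 110.9 kb, and on autosomes with that limit -10.7, -1.80, 0.0508 and -5.30.

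KO minus WT moved as follows. Domains above the median score gave 0.196 for week 1 H3K4me3 and -5.81 and -1.53 for week 2 and 3 H3K27me3, and autosomes -8.09 and -2.93. Under 50% repeated gave 1.20, -22.6 and -5.46 for H3K27me3 by week, -3.20 and -0.932 for week 2 and 3 H3K4me3, and -3.60, 2.53 and 1.60 for Oct4, Sox2 and Nanog. Summits above the median height gave -1.36, 1.31 and 0.588 for these factors, and lists of equal number turned all of them, to 0.392, -0.669 and -0.425. Summits within 1000 bp gave -7.74 for Oct4 and 3.71 for Sox2, and autosomes 4.01 for Sox2 and 2.64 for Nanog. The causes were not tested.

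No paired analysis was possible because each group was 1 library and no result came from a test. Domains and summits are calls without depth, so absence of a call does not show absence of a mark, above all in repeated sequence. Neighbouring windows are not independent, and the KO samples rest on 1 line.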
